A study of Mus musculus with 6 samples.

Results

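The comparison set oxidised low-density lipoprotein (oxLDL) against no treatment in mouse bone marrow-derived macrophages, with genotype held as a term of the model. Its members were the 3 oxLDL and 3 untreated libraries of the count table, which are 6 of the 6 libraries measured. The treated arm held 2 libraries of Kindlin3-integrin mutant macrophages and 1 of wild-type macrophages, and the untreated arm held the same numbers. All mice were on a C57BL/6 background, and all marrow cells were cultured for 7 days in medium conditioned by L929 fibroblasts before 24 hours with or without 50 µg/ml oxLDL. The labels name the mutant samples KI and do not say which change the gene carries or whether replicates are separate animals or cultures. The p-values therefore measure the spread between these libraries, which may be technical, and wild type rests on 1 library per arm.

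Oxidised LDL is taken up by macrophages through scavenger receptors and loads them with cholesterol and oxidised lipids, the step that makes foam cells in an atherosclerotic plaque. Its best-known effects on transcription are the activation of lipid-sensing nuclear receptors and of the antioxidant response, and the repression of sterol synthesis and of parts of the inflammatory and interferon programmes. The genes described here lie mostly outside those programmes. They include genes of tRNA charging, the circadian clock, membrane receptors, membrane lipids, nucleotides, growth factors and ion transport.

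Counts assigned to genes came to between 11281659 and 24273497 per library. In the mutant both oxLDL libraries were deeper than both untreated ones, and in wild type the untreated library was the deeper (21081679 against 15807958 counts). Summed macrophage markers ranged from 20570 to 30390 CPM (counts scaled to library depth) without oxLDL and from 10090 to 19420 CPM with it, and the 8 markers were detected throughout. Lyz2, at 5686 to 20970 CPM, was the largest part of that sum in every library and was not called (adjusted p = 0.0939). Of the other 7, Emr1 (log2 -2.45), Fcgr1 (-3.27), Cd14 (-2.35), Itgam (-2.03) and Csf1r (-1.20) fell, and Cd68 (0.89) and Mertk (0.81) rose. Neutrophil markers summed to 39.2 CPM in wild type untreated and to between 0.706 and 2.24 CPM in the other 5 libraries. Ngp, S100a9 and Ltf, which encode neutrophil granule and cytosolic proteins, measured 12.5, 9.92 and 8.29 CPM in that library and at most 0.212 CPM in the others. Ngp and S100a9 were called lower with oxLDL, with at most 0.212 CPM in every mutant library. Dendritic cell markers, mainly Xcr1, summed to 3.62 to 5.93 CPM without and 1.66 to 2.33 CPM with oxLDL, and osteoclast markers to 32.7 to 52.7 and 15.8 to 23.2 CPM. Of the latter Acp5 fell (log2 -2.35), while Ctsk, at 14.03, 7.57 and 1.84 CPM without and 17.9, 11.99 and 9.65 CPM with oxLDL (mutant, mutant, wild type), did not pass (log2 1.01, adjusted p = 0.111). Markers of fibroblasts, lymphocytes, mast cells, erythroid cells and adipocytes summed to at most 2.03 CPM in any library. In such bulk RNA, fewer cells of a type and less RNA per cell cannot be told apart.

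Transcripts of the pancreas were set apart as carry-over by the rule of the comparison and were counted in no gene list and in no list of largest changes. Amy2a5 (pancreatic amylase, with 47.8% of its sequence shared with other genes) reached 92.3 and 73.2 CPM in treated mutant cells and 123.1 CPM in untreated wild-type cells, and had 0 counts in the other 3 libraries. Pnlip (pancreatic lipase) measured 15.9, 11.9 and 20.9 CPM in the same 3 libraries, and Ctrb1 (chymotrypsinogen) 10.8, 8.22 and 14.1 CPM, again with 0 counts in the others. The genes are on opposite sides of the treatment in the genotypes: high with oxLDL in the mutant and high without it in wild type. All 30 pancreatic genes tested were higher in each of those 3 libraries than in any of the other 3, and 0 of the 30 were called across genotypes by edgeR, and 0 had an unadjusted p under 0.05. Their summed level was 229, 182 and 308 CPM in the 3 libraries and 2.17 to 4.06 CPM in the rest. DESeq2 called 8 of the 30 higher, among them Amy2a5 (adjusted p = 0.0032), Pnlip (0.0224) and Ctrb1 (0.0320). How these transcripts entered the libraries was not tested.

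**Figure D1:**
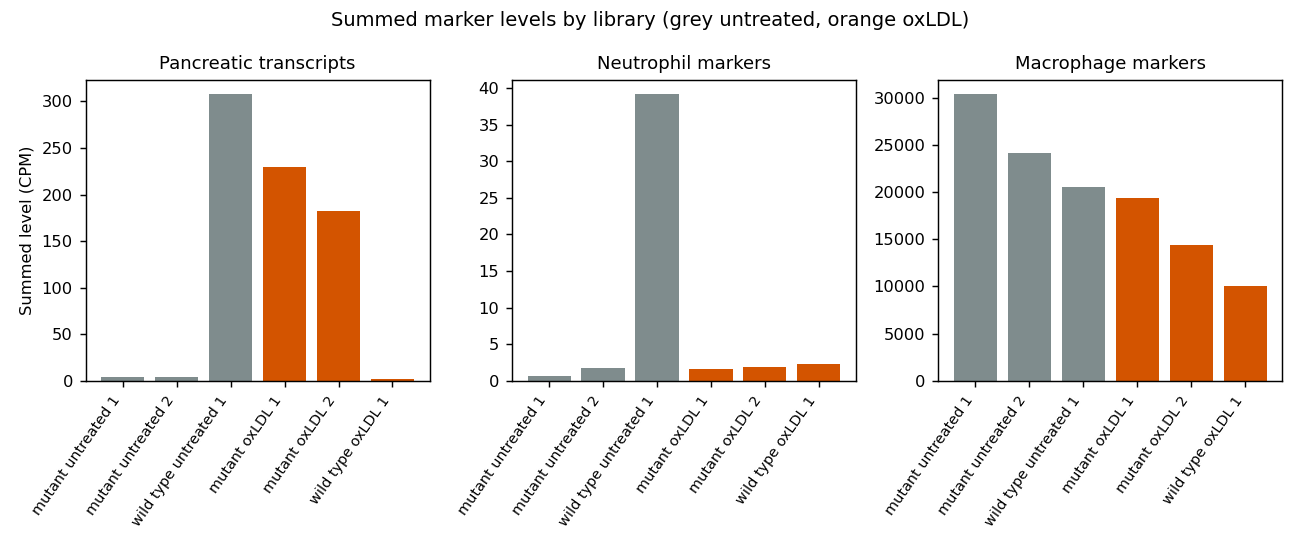
Summed level in CPM (y axis, linear from 0, a separate scale for each panel) of pancreatic transcripts, neutrophil markers and macrophage markers in each of the 6 libraries (x axis), untreated in grey and oxLDL in orange. Pancreatic transcripts reach 182 to 308 CPM in 3 libraries that lie on both sides of the treatment, and neutrophil markers reach 39.2 CPM in wild type untreated.

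The first question was how many genes moved with oxLDL and whether the same genes moved in both genotypes. The treatment changed a large part of the transcriptome, and nearly all called genes moved the same way in the mutant and in wild type. Of 12689 genes tested, 5134 (40.5%) were called at a false discovery rate of 0.05, 2419 higher (19.1%) and 2715 lower (21.4%). The fold change was at least 2 for 754 of the genes called higher and for 1424 of those called lower, so large decreases outnumbered large increases. The median log2 fold change over all genes was 0.006. Of the 5134 called genes, 5111 had the same sign in the mutant libraries and in the wild-type pair and 23 had opposite signs, a count that the choice of genes in part sets, since the fit used both genotypes.

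An estimate from separate libraries was obtained by testing the mutant alone and reading the direction in wild type. The 4 mutant libraries called 4529 of the 12689 genes (35.7%). The wild-type log2 ratio, which shares no library with that test, had the same sign for 4260 of them (94.06%), and for 1939 of the 2060 called genes with a fold change of at least 2 in the mutant (94.13%). The same share was 77.3% over all genes tested and 68.05% over genes not called in the mutant. The share was close in both directions, at 94.29% of genes called higher and 93.87% of those called lower. The wild-type change was also of similar size, with a median ratio of the wild-type to the mutant log2 change of 0.943 over the called genes. The 28 pancreatic genes called in the mutant all had the opposite sign in wild type.

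**Figure D2:**
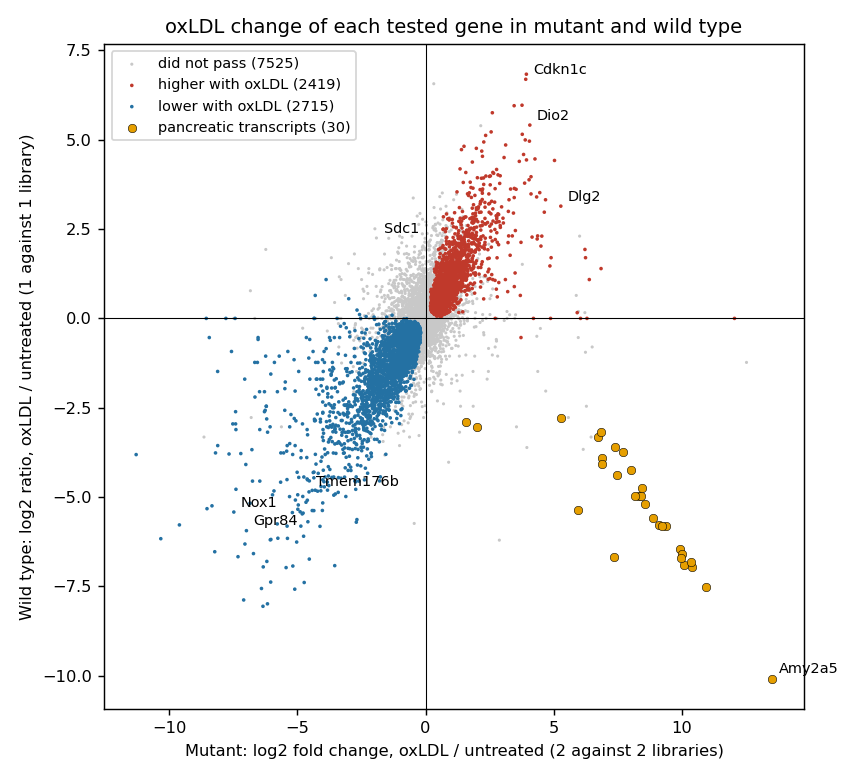
The log2 fold change with oxLDL in the mutant (x axis, 2 against 2 libraries) against the log2 ratio of the 2 wild-type libraries (y axis, prior count of 2, which shrinks low genes). Each point is 1 of the 12689 genes tested, coloured by the call across genotypes, with the 30 pancreatic genes in orange. Called genes fill the quadrants of equal sign, and the pancreatic genes lie in the quadrant higher in the mutant and lower in wild type.

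In all, 38 gene lists for functions other than the best-known programmes were examined, with 1830 members tested. Of these members 821 were called, 383 higher and 438 lower, a share near the background of 40.5%, and 817 of the 821 had the same sign in both genotypes. Members that are also in a best-known list were not taken out of these counts. They include 5 called members of the nucleotide list, 4 of the sphingolipid list and 4 of the folate list. The lists differed in how their calls were divided. The shares called higher or lower were far from the background for the Ms4a family, the tRNA synthetases and the clock genes. Ribosomal proteins had few calls in either direction. The counts of each list stand beside the 19.1% of all genes called higher and the 21.4% called lower.

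**Figure D3:**
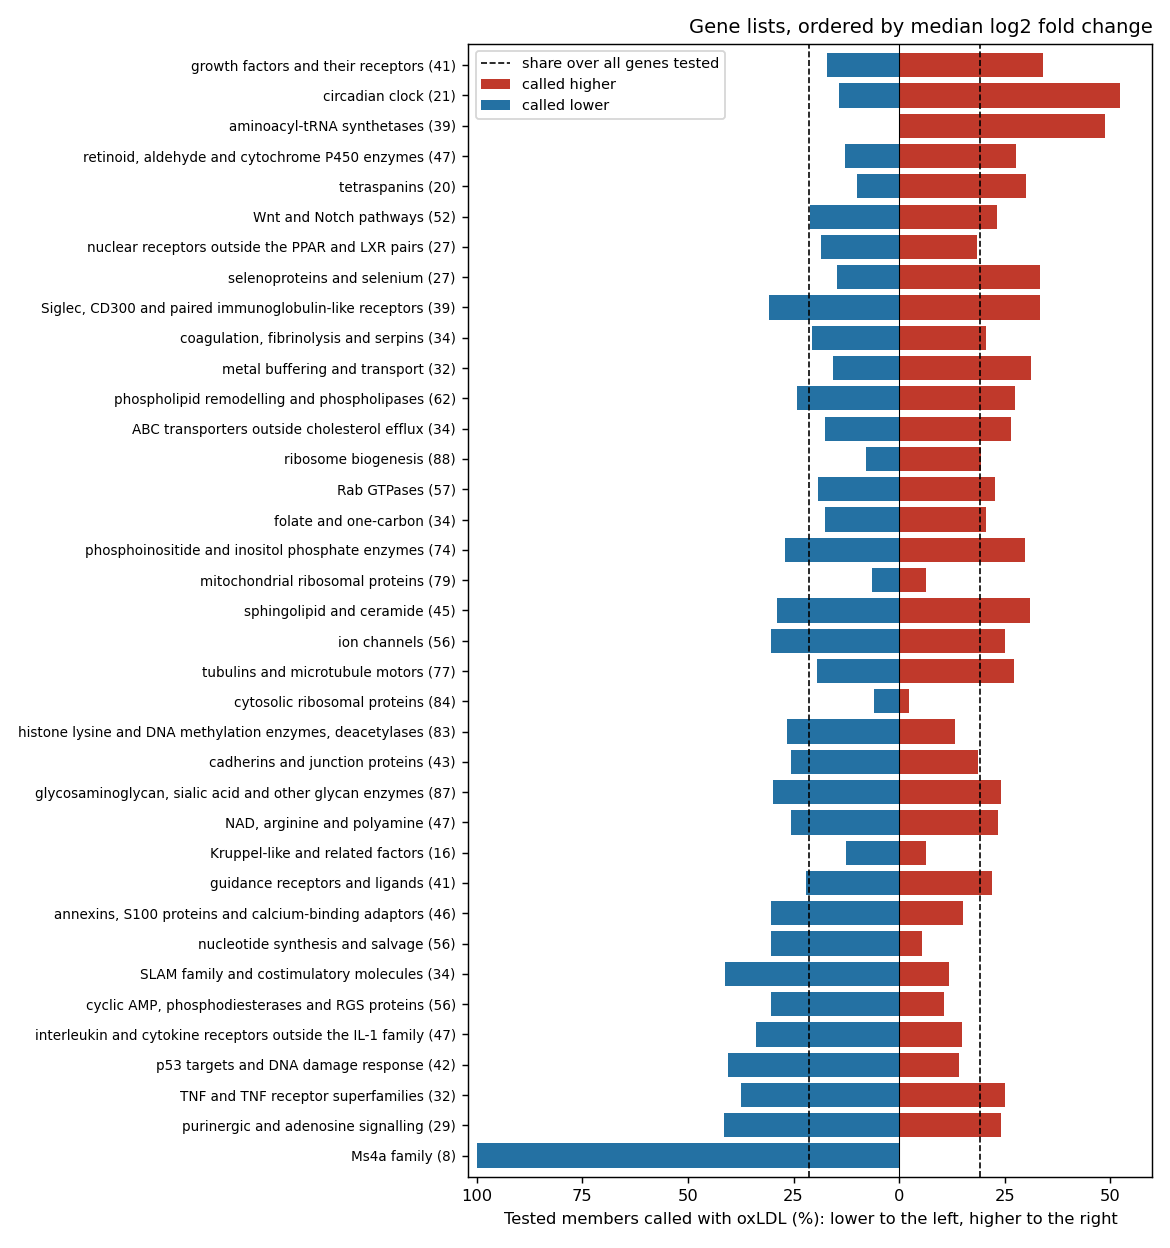
Percent of tested members called higher (red, to the right) and lower (blue, to the left) with oxLDL for 37 of the 38 lists (y axis, number of members tested in parentheses), ordered by the median log2 fold change. Dashed lines mark the shares over all genes tested, 19.1% higher and 21.4% lower. The tRNA synthetase list has no bar to the left, and the Ms4a family has no bar to the right.

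Aminoacyl-tRNA synthetases load each tRNA with its amino acid, and most amino acids have a cytosolic and a mitochondrial enzyme encoded by separate genes. With oxLDL 19 of 39 members rose and 0 fell, against 19.1% and 21.4% over all genes, and the median log2 fold change of the list was 0.42. Of the 20 cytosolic enzymes 13 rose, of the 17 mitochondrial enzymes 6 rose, and neither of the 2 scaffold proteins Aimp1 and Aimp2 (25.1% of its sequence shared) passed. All 19 genes called were higher in both genotypes. With any 1 library left out, between 16 and 19 members were called higher and 0 lower. DESeq2 called 19 higher and 0 lower, and at an unadjusted p under 0.05 edgeR gave 21 higher and 2 lower.

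Sars, which charges tRNA with serine, measured 91.2 and 78.7 CPM in the mutant and 82.0 CPM in wild type without oxLDL, and 247, 250.0 and 211 CPM with it. Every treated library was above every untreated one, which held for 24.5% of all genes tested. The gene rose 2.80-fold (log2 fold change 1.49 ± 0.09 SE, adjusted p = 0.000150), with 1.55 in the mutant and 1.36 in wild type. Eprs, the enzyme for glutamate and proline, rose 2.26-fold and Cars, for cysteine, 2.24-fold. Aars, for alanine, rose 2.01-fold, with 13.2% of its sequence shared with other genes. The other cytosolic members called, in order of size, were Gars, Mars, Nars, Yars, Rars, Wars, Tars, Farsb and Iars, from 1.87-fold for Gars to 1.27-fold for Iars. The cytosolic enzymes for histidine, lysine and valine did not pass, and their fitted values were below 0 (Hars -0.19 ± 0.08, Kars -0.22 ± 0.09 and Vars -0.26 ± 0.11, adjusted p between 0.0966 and 0.101).

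Many cytosolic synthetase genes are known targets of ATF4, a transcription factor of the amino acid response that binds composite C/EBP-ATF elements. The promoter windows of the list, from 250 bases before to 50 bases after the annotated start in RefSeq GRCm38.p6, were searched for the core letters of that element, TGATGNAA, on both strands, and no other motif was searched. A window was found by symbol for 30 of the 39 genes. The letters were present in 5 of the 15 matched genes that rose (Aars, Gars, Iars, Tars and Yars) and in 0 of the 15 matched genes that did not pass. Over all 32851 promoter windows 3.97% held the letters, and 2.93% of the 9550 tested genes matched by symbol had a window with them. All 5 encode cytosolic enzymes, while most matched genes that did not pass encode mitochondrial enzymes or scaffold proteins, so the classes are not alike. Sars and Eprs, the largest rises of the list, had a window without the letters. Cars, Nars, Rars and Wars rose and had no window. These are matches of letters, binding was not measured, and a part of ATF4 in the rise was not tested. The stretches of 120 bases before the start that hold a match are printed below for Aars (chr8:111033722-111033841, plus strand), Gars (chr6:55037881-55038000, plus strand) and Tars (chr15:11399659-11399778, minus strand), 5′ to 3′ on the strand of the gene, because these 3 genes rose and carry the letters upstream of the start. Capitals mark the match, which in all 3 lies on the opposite strand and reads TTNCATCA. In Iars and Yars the match lies after the start and is not shown.
Aars: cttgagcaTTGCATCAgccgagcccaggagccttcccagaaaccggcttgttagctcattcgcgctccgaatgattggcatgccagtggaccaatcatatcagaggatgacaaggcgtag
Gars: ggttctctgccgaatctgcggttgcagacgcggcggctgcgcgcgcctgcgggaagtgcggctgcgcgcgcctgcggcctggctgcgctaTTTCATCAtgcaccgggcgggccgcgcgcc
Tars: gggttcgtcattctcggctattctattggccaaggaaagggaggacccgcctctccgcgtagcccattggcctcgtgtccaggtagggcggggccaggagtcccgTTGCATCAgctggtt

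The circadian clock is a transcription loop in which CLOCK or NPAS2 pairs with BMAL1 (Arntl) to activate its own repressors, and macrophages hold a clock that gates their inflammatory output. Of 21 clock genes tested 11 rose (52.4%, against 19.1% over all genes), 3 fell (14.3%, against 21.4%) and 7 did not pass. The median log2 fold change was 0.46, with 0.50 in the mutant and 0.14 in wild type. All 14 called members had the same sign in both genotypes. Bhlhe41 and Bhlhe40 encode repressors that compete with the CLOCK and BMAL1 pair. Bhlhe41 measured 64.4 and 47.1 CPM in the mutant and 31.6 CPM in wild type without oxLDL, and 368, 354 and 302 CPM with it. No treated library came near the untreated range in either genotype. The gene rose 7.38-fold (log2 2.88 ± 0.17, adjusted p = 0.000131), with 14.8% of its sequence shared with an overlapping gene. Bhlhe40 measured 27.8, 22.2 and 6.65 CPM without and 107, 85.2 and 52.0 CPM with oxLDL in the same order and rose 4.79-fold (log2 2.26 ± 0.24, adjusted p = 0.000778).

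The activating arm of the clock was split. Arntl fell by 0.88 ± 0.13 on the log2 scale (adjusted p = 0.00249), whereas its partner genes Npas2 and Clock rose, by 2.52 ± 0.65 (adjusted p = 0.0217) and 0.46 ± 0.08 (adjusted p = 0.00437). Rora and Nr1d1 encode nuclear receptors that act on the Arntl promoter in opposite senses, as activator and repressor, and these also parted. Rora rose 2.48-fold (log2 1.31 ± 0.15) and Nr1d1 fell by 0.72 ± 0.20 (adjusted p = 0.0299). Nfil3, Cry1, Csnk1e, Nr1d2 (the paralogue of Nr1d1) and Tef rose between 1.41-fold (Tef, adjusted p = 0.0471) and 2.65-fold (Nfil3). Of the core repressor genes Cry1 and Per1 to Per3, Cry1 was thus higher. Per1, Per2 and Per3 did not pass, with log2 fold changes of -0.15 ± 0.12, 0.32 ± 0.25 and -0.23 ± 0.31. Timeless, which acts mainly at replication forks in mammals, fell 3.69-fold.

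**Figure D4:**
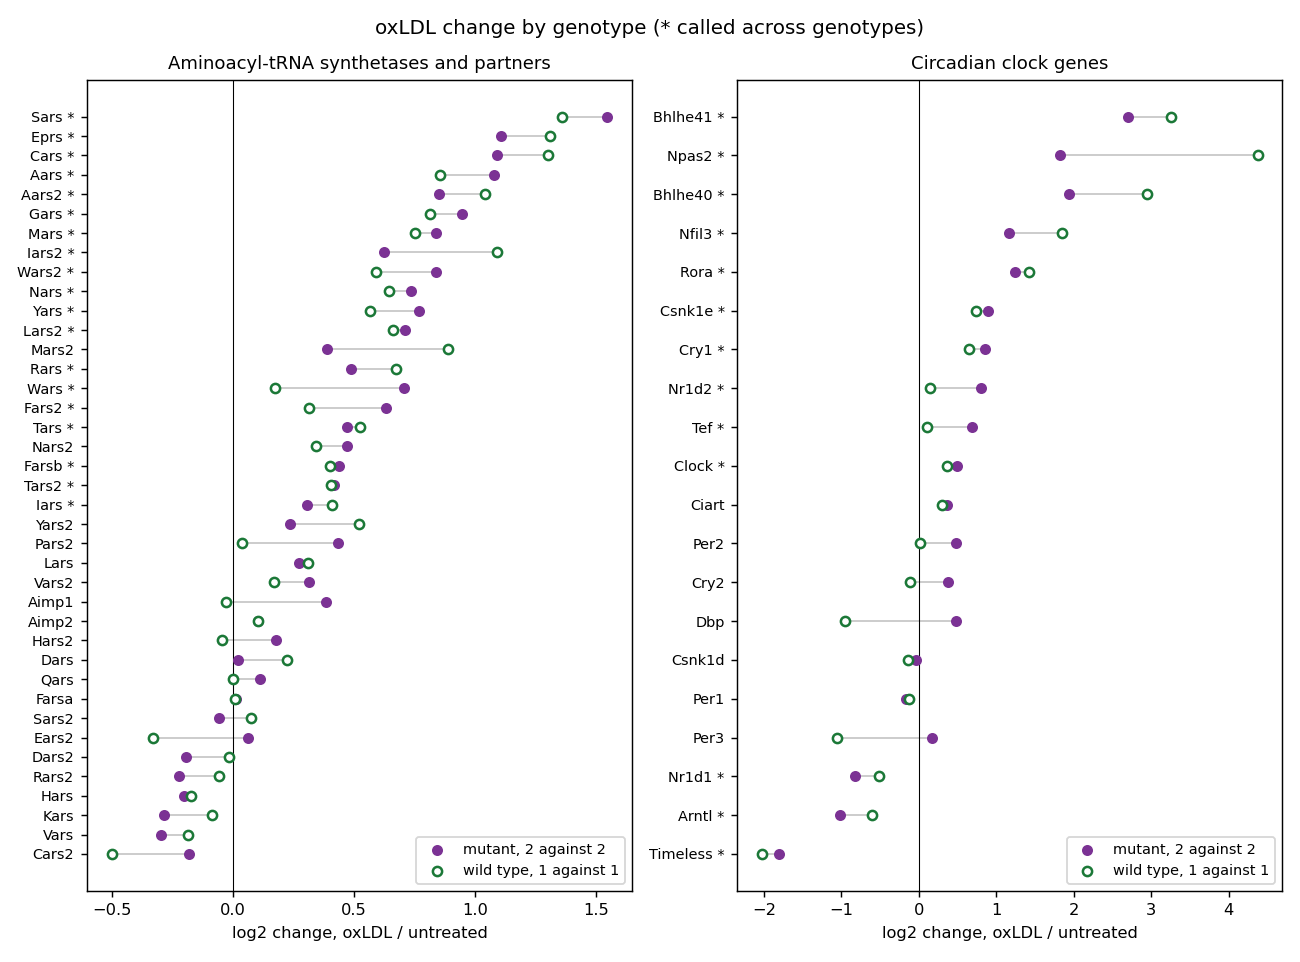
The log2 change with oxLDL (x axis) in the mutant (filled, 2 against 2 libraries) and in wild type (open, 1 against 1 library) for every tested member of the tRNA synthetase list (left) and 20 of the 21 of the clock list (right), with a star at genes called across genotypes. All starred synthetases lie to the right of 0 in both genotypes, and Bhlhe41, Npas2 and Bhlhe40 lead the clock genes.

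Fgd2, an exchange factor for CDC42 found in antigen-presenting cells, measured 56.6, 63.3 and 126 CPM without oxLDL (mutant, mutant, wild type) and 5.23, 3.37 and 6.97 CPM with it. The treated libraries lay far below the untreated ones in both genotypes. Fgd2 fell 15.1-fold (log2 -3.92 ± 0.19, adjusted p = 7.90e-05). Arhgap4 fell 6.75-fold, from 195, 243 and 449.5 CPM to 35.5, 33.4 and 59.0 CPM, with 27.3% of its sequence shared with an overlapping gene. Dock8, an exchange factor needed for leukocyte migration, fell 2.26-fold and Arhgap17 fell 2.26-fold, with every treated library below every untreated one, as for 23.3% of all genes.

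Membrane proteins of the MS4A group span the membrane 4 times and are expressed in myeloid cells, and Tmem176a and Tmem176b are related proteins of dendritic cells and macrophages. All 8 members tested fell, in both genotypes, with a median log2 fold change of -3.90. Ms4a6b measured 187, 180.4 and 310 CPM without oxLDL (mutant, mutant, wild type) and 14.5, 14.02 and 30.6 CPM with it, an 11.9-fold decrease (log2 -3.57 ± 0.11, adjusted p = 5.24e-05). Tmem176b measured 231, 370 and 862 CPM without and 9.13, 16.9 and 29.7 CPM with oxLDL and fell 25.1-fold. For both genes the treated and untreated libraries were separated by several-fold. Tmem176a fell 18.9-fold, Ms4a4c 53.1-fold (log2 -5.73, or -6.84 without mutant oxLDL replicate 1) and Ms4a4b 37.6-fold. Ms4a7 and Ms4a6d fell least, 1.64-fold and 1.49-fold. Ms4a6c fell 11.1-fold, with 47.7% of its stretches found in another gene model. With 1 library left out 7 or 8 members were called lower.

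Of 34 SLAM family and costimulatory genes 14 fell and 4 rose (41.2% and 11.8%, against 21.4% and 19.1% over all genes), with a median of -0.20. The count higher was 2 without mutant untreated replicate 2, 2 without mutant oxLDL replicate 1 and 1 without the genotype term. Slamf9, a receptor of the SLAM family, measured 235, 339 and 666 CPM without oxLDL and 12.9, 16.5 and 23.7 CPM with it (mutant, mutant, wild type) and fell 22.2-fold (log2 -4.47 ± 0.21, adjusted p = 7.90e-05). Cd55, which protects cells from complement, fell 18.3-fold, and Ly86 (MD-1), the partner of the RP105 receptor for lipopolysaccharide, fell 4.52-fold. Cd72, an inhibitory receptor, fell 13.2-fold, with 34.7% of its sequence shared with an overlapping gene.

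The Siglec, CD300 and paired immunoglobulin-like receptors, which carry inhibitory or activating tails, were divided, with 13 of 39 higher and 12 lower. These shares were 33.3% and 30.8%, against 19.1% and 21.4% over all genes. The list median was 0.305 in the mutant and -0.175 in wild type, and 24 called members had the same sign in both. Pilra, an inhibitory receptor, fell 14.9-fold (log2 -3.90 ± 0.20), with 14.7% of its sequence shared. Milr1 (allergin-1) fell 3.10-fold and Siglec1, the sialoadhesin of tissue macrophages, 2.70-fold. In contrast Cd33, a Siglec, measured 44.7, 26.04 and 20.9 CPM without and 168, 146 and 97.0 CPM with oxLDL and rose 4.52-fold (log2 2.18 ± 0.20, adjusted p = 0.000496). All treated libraries of Cd33 were above the untreated ones, and the log2 change was 2.16 in the mutant and 2.21 in wild type.

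Aif1 (IBA1), an actin-binding calcium sensor used as a marker of macrophages and microglia, measured 181, 211 and 407 CPM without oxLDL and 11.7, 11.4 and 14.3 CPM with it. It fell 20.1-fold (log2 -4.33 ± 0.18, adjusted p = 7.61e-05), with log2 changes of -4.08 in the mutant and -4.83 in wild type. Of its list of annexins, S100 proteins and calcium-binding adaptors, 14 of 46 fell and 7 rose (30.4% and 15.2%, against 21.4% and 19.1% over all genes). The count higher was 4 without mutant untreated replicate 2 and 4 without mutant oxLDL replicate 1. S100a1, a calcium-binding protein, rose 3.31-fold and Nfatc2, a calcium-dependent transcription factor, fell 5.29-fold.

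**Figure D5:**
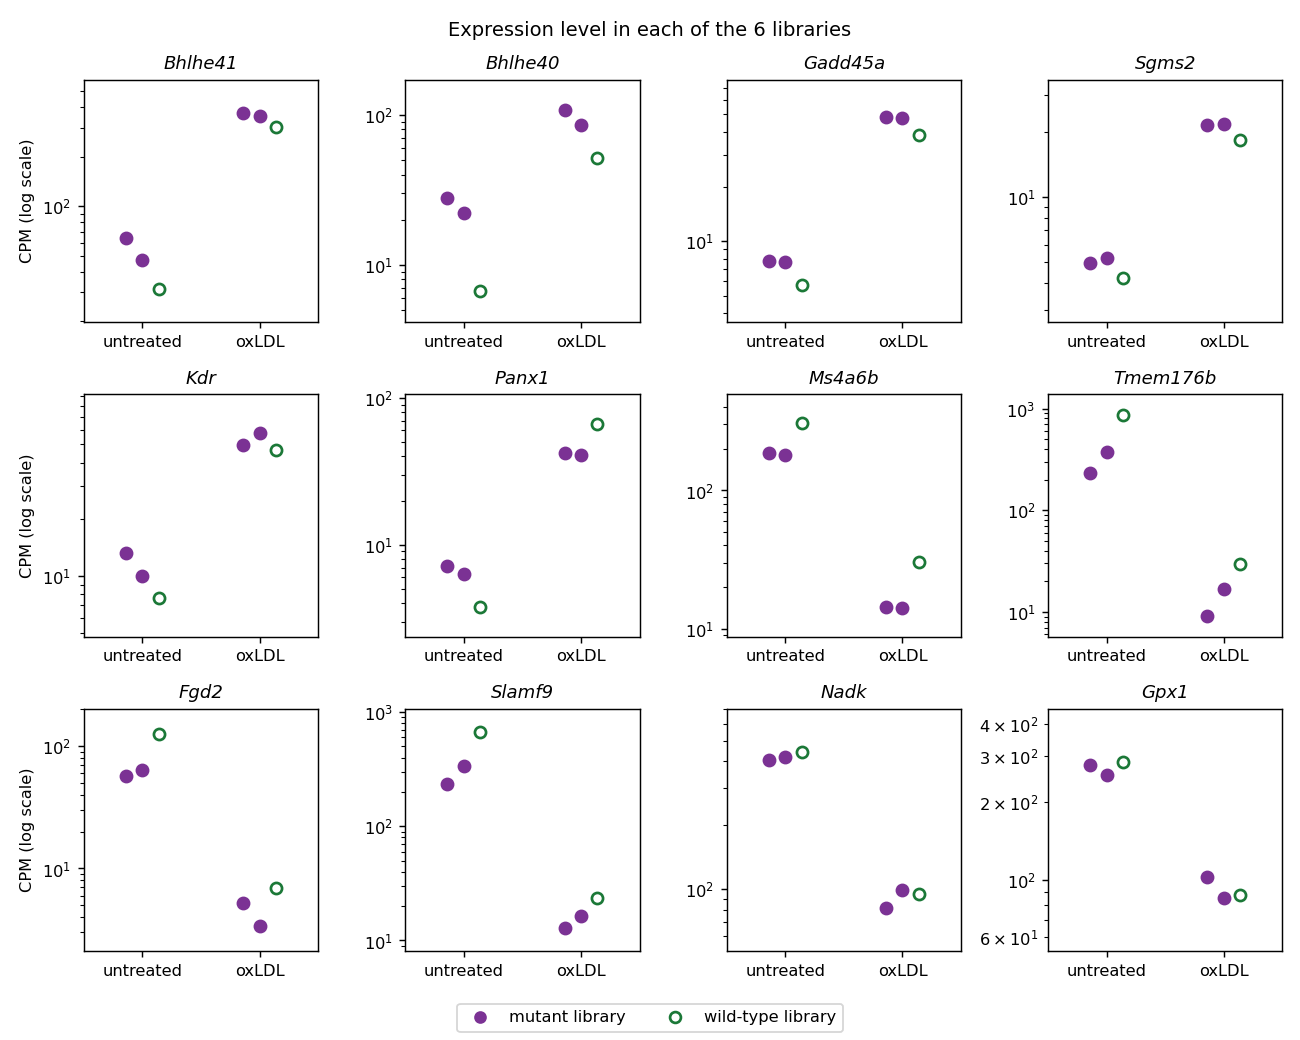
Level in CPM (y axis, log scale, a separate range for each gene) of 12 genes in the 3 untreated and 3 oxLDL libraries, filled for mutant and open for wild type. In each panel the 3 treated libraries lie on one side of the 3 untreated ones, as for Bhlhe41 (31.6 to 64.4 CPM untreated and 302 to 368 CPM with oxLDL) and Slamf9 (235 to 666 and 12.9 to 23.7 CPM).

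Among cytokine and growth factor genes the directions were mixed. Of 41 growth factors and receptors 14 rose and 7 fell (34.1% and 17.1%, against 19.1% and 21.4% over all genes), with a median of 0.51. The counts were 8 higher and 4 lower without mutant untreated replicate 2, 9 higher without mutant oxLDL replicate 1 or without the genotype term, and 3 lower without mutant untreated replicate 1. Within the vascular endothelial growth factor family the ligand genes parted: Vegfb rose 3.58-fold (log2 1.84 ± 0.12) and Vegfc fell 9.45-fold (log2 -3.24 ± 0.31). Vegfc was far lower in untreated wild type (2.76 CPM) than in the untreated mutant (20.3 and 27.0 CPM). Kdr, the receptor VEGFR2, measured 13.3, 9.98 and 7.62 CPM without and 49.9, 57.7 and 46.8 CPM with oxLDL and rose 5.09-fold (adjusted p = 0.000178). Kdr is also an endothelial marker, while the endothelial markers Pecam1 and Cdh5 fell, Cdh5 was at most 0.637 CPM and Emcn had 0 counts in every library. Irs2, the adaptor of the insulin receptor, rose 5.18-fold.

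Of 32 genes of the TNF and TNF receptor superfamilies 12 fell and 8 rose (37.5% and 25%, against 21.4% and 19.1% over all genes). The count higher was 5 without mutant untreated replicate 2. Tnfrsf11a (RANK), the osteoclast differentiation receptor, fell 3.67-fold and the cytokine gene Tnfsf15 fell 6.19-fold. Tnfrsf26, a member of the receptor superfamily, rose 7.99-fold, from 37.6, 24.98 and 10.8 CPM to 183, 178 and 174 CPM. Of 47 cytokine receptor and signalling genes outside the interleukin-1 family 16 fell (34%) and 7 rose (14.9%, and 2 genes without mutant untreated replicate 2). Socs3, a feedback inhibitor of JAK and STAT signalling, fell 10.4-fold, whereas Socs6, of the same family, rose 3.43-fold. Lifr, the leukaemia inhibitory factor receptor, fell 5.11-fold and Ifngr1, of the interferon gamma receptor, 1.96-fold.

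Extracellular nucleotides act on macrophages through P2 receptors and leave cells through pannexin channels. Of 29 purinergic and adenosine genes 12 fell and 7 rose (41.4% and 24.1%, against 21.4% and 19.1% over all genes), with a median of -0.61. The count higher was 4 without mutant untreated replicate 2. Panx1, the pannexin channel, measured 7.15, 6.37 and 3.79 CPM without oxLDL and 42.3, 41.1 and 66.1 CPM with it (mutant, mutant, wild type). It rose 8.70-fold (log2 3.12 ± 0.31, adjusted p = 0.000611), by 2.63 in the mutant and 4.09 in wild type, and the difference between genotypes did not pass (adjusted p = 0.0779). The receptor genes parted. P2ry6, for UDP, fell 3.10-fold and P2ry2, for ATP and UTP, rose 3.16-fold. Slc28a2, a nucleoside transporter, fell 2.97-fold, with 24.7% of its sequence shared. Of 56 genes of cyclic AMP signalling 17 fell (30.4%) and 6 rose (10.7%). The count higher was 2 without mutant untreated replicate 2 and 3 without mutant oxLDL replicate 2 or without the genotype term. Adcy7, the main adenylyl cyclase of myeloid cells, fell 2.16-fold.

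Membrane lipid genes were called in both directions. Of 45 sphingolipid genes 14 rose and 13 fell (31.1% and 28.9%, against 19.1% and 21.4% over all genes). The count higher was 7 without mutant untreated replicate 2 and 9 without mutant oxLDL replicate 1 or without the genotype term. Sgms2, the sphingomyelin synthase of the plasma membrane, measured 4.94, 5.24 and 4.19 CPM without and 21.7, 21.99 and 18.5 CPM with oxLDL. The spread within each arm was small, and the gene rose 4.33-fold (log2 2.11 ± 0.11, adjusted p = 0.000105), by 2.096 in the mutant and 2.109 in wild type. S1pr1, a sphingosine 1-phosphate receptor, rose 2.80-fold, while Sgpp1, the phosphatase of that lipid, fell 2.48-fold.

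Of 62 phospholipid remodelling genes 17 rose (27.4%, against 19.1% over all genes) and 15 fell (24.2%, against 21.4%). Ppap2b, a lipid phosphate phosphatase that degrades lysophosphatidic acid at the cell surface, measured 5.74, 3.61 and 1.69 CPM without and 70.3, 60.6 and 43.2 CPM with oxLDL and rose 16.9-fold (log2 4.08 ± 0.24, adjusted p = 0.000124). Lpcat2, which makes platelet-activating factor, fell 3.61-fold and Lpcat1, which remodels phosphatidylcholine, 3.23-fold. Of 74 phosphoinositide genes 22 rose and 20 fell (29.7% and 27%, against 19.1% and 21.4% over all genes). The count higher was 11 without mutant untreated replicate 2. Pik3ap1 (BCAP), an adaptor of phosphoinositide 3-kinase, fell 3.96-fold and Itpkb, an inositol trisphosphate kinase, 2.72-fold, whereas the myotubularin phosphatase gene Mtm1 rose 2.39-fold.

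Nucleotide metabolism was called mainly downward, with 17 of 56 genes lower and 3 higher (30.4% and 5.36%, against 21.4% and 19.1% over all genes). Without the filter on low counts 7 were higher. All called members had the same sign in both genotypes, and 5 of them are also in a best-known list. The median was -0.17, with -0.32 in the mutant and 0.02 in wild type, so the list as a whole was not shifted downward in wild type. Dck, the salvage kinase for deoxycytidine, measured 134, 124 and 99.3 CPM without and 19.6, 18.8 and 22.3 CPM with oxLDL and fell 5.86-fold (log2 -2.55 ± 0.14, adjusted p = 0.000109). Pnp, the purine nucleoside phosphorylase, fell 3.17-fold, with nearly equal log2 changes of -1.67 in the mutant and -1.66 in wild type and 19.1% of its stretches found in another gene model. Samhd1, which degrades deoxynucleotides, fell 3.30-fold and Cmpk2, a mitochondrial nucleotide kinase, 12.5-fold. Both are also known as interferon-stimulated genes.

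Nadk, the kinase that makes NADP from NAD, measured 407, 419 and 440.0 CPM without oxLDL and 81.8, 99.1 and 94.8 CPM with it. The groups were clearly apart, and Nadk fell 4.59-fold (log2 -2.20 ± 0.10, adjusted p = 7.72e-05), by 2.20 on the log2 scale in the mutant and 2.21 in wild type. Gatm, the first enzyme of creatine synthesis, fell 8.88-fold and Ckb, the brain creatine kinase, 2.54-fold. Slc7a2, an arginine transporter, rose 2.87-fold in the fit with genotype, although its level in treated wild type (2.24 CPM) was below that in the untreated mutant (11.9 and 12.3 CPM), and it did not pass without the genotype term (adjusted p = 0.366). In the folate pathway 7 of 34 genes rose (4 without mutant oxLDL replicate 1) and 6 fell. These shares, 20.6% and 17.6%, were near the 19.1% and 21.4% over all genes. The list median was -0.072 in the mutant and 0.351 in wild type. The mitochondrial enzyme gene Mthfd2 rose 2.59-fold. The cytosolic enzyme gene Aldh1l1 fell 3.58-fold and the folate receptor gene Folr2 4.32-fold, the latter with 47.1% of its sequence shared.

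The p53 and DNA damage genes fell more often than they rose, with 17 of 42 lower and 6 higher and a median of -0.43. These shares were 40.5% and 14.3%, against 21.4% and 19.1% over all genes. Gadd45a, a stress sensor that is induced by p53 and by other pathways, went the opposite way. It measured 7.77, 7.71 and 5.73 CPM without and 48.5, 47.8 and 38.5 CPM with oxLDL and rose 6.38-fold (log2 2.67 ± 0.10, adjusted p = 5.58e-05), with 13.9% of its sequence shared. Cdkn1a (p21), the classical p53 target, fell 3.49-fold across genotypes, with log2 changes of -1.67 in the mutant and -2.09 in wild type. Btg2 fell 3.76-fold and the stress gene Sesn1 5.29-fold.

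Selenoproteins, which carry selenocysteine, include glutathione peroxidases. Of 27 genes of this group 9 rose and 4 fell (33.3% and 14.8%, against 19.1% and 21.4% over all genes). The count lower was 2 without mutant oxLDL replicate 2. The glutathione peroxidase genes parted. Gpx1, the main cytosolic enzyme, measured 277, 254 and 286 CPM without and 103, 84.7 and 87.3 CPM with oxLDL and fell 2.98-fold (log2 -1.57 ± 0.11, adjusted p = 0.000193). Gpx4, which reduces lipid hydroperoxides in membranes, rose 1.83-fold, with 29.8% of its sequence shared with a pseudogene. Msrb1, a methionine sulfoxide reductase, rose 2.49-fold and Scly, which recycles selenocysteine, 2.16-fold.

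Of 32 metal transport genes 10 rose and 5 fell (31.2% and 15.6%, against 19.1% and 21.4% over all genes). The copper transporter gene Slc31a2 fell 3.01-fold and the zinc transporter genes moved apart, with Slc39a13 down 5.87-fold and Slc39a10 up 1.81-fold. Of 56 ion channel and related genes 17 fell and 14 rose (30.4% and 25%, against 21.4% and 19.1% over all genes). The count higher was 9 without mutant untreated replicate 2. Kctd12, an auxiliary subunit of GABA-B receptors, fell 19.5-fold, with 60.6% of its sequence shared with an overlapping gene model. Aqp9, an aquaporin that passes glycerol, rose 12.1-fold, from 0.794, 1.56 and 0.563 CPM to 12.5, 14.3 and 8.31 CPM, and Clcn7, the lysosomal chloride exchanger, rose 2.61-fold. Among ABC transporters outside cholesterol efflux 9 of 34 rose and 6 fell (26.5% and 17.6%, against 19.1% and 21.4% over all genes). The counts were 5 and 3 without mutant untreated replicate 2, 4 higher without mutant oxLDL replicate 1 and 5 higher without the genotype term. Abca5 rose 4.37-fold and Tap1, of the peptide transporter for antigen presentation, fell 2.79-fold.

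Of 41 guidance receptors and ligands 9 were higher and 9 lower (22% each, near the shares over all genes), and without the genotype term 4 were higher and 8 lower. The list median was -0.392 in the mutant and 0.299 in wild type. Plxna1, a semaphorin receptor, measured 485, 348 and 199 CPM without and 2062, 1677 and 1563 CPM with oxLDL and rose 5.40-fold (log2 2.43 ± 0.23, adjusted p = 0.000548). All treated libraries exceeded all untreated ones by several-fold. Flrt2 rose 4.56-fold, with a level in untreated wild type (15.1 CPM) below that in the untreated mutant (89.5 and 67.0 CPM), and did not pass without the genotype term (adjusted p = 0.0617). Ctnnb1 (beta-catenin) rose 2.40-fold, with 11.1% of its sequence shared. It is in a Wnt and Notch list with 12 of 52 higher and 11 lower (23.1% and 21.2%, near the shares over all genes). That list had 7 higher without mutant untreated replicate 2 and 7 higher without either wild-type library. The kinesin gene Kif3a, a motor of intracellular transport, rose 5.73-fold, while Kif3c fell 2.39-fold, with 38.9% of its sequence shared. Of the 77 tubulin and motor genes 21 rose and 15 fell (27.3% and 19.5%, against 19.1% and 21.4% over all genes). The count higher was 12 without mutant untreated replicate 2.

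Of 87 glycan enzymes 26 were lower (29.9%, against 21.4% over all genes, and 16 without mutant untreated replicate 2) and 21 higher (24.1%, against 19.1%). Xylt2, which starts glycosaminoglycan chains, measured 367, 385 and 565 CPM without and 76.7, 62.7 and 113 CPM with oxLDL and fell 5.25-fold (log2 -2.39 ± 0.11, adjusted p = 7.62e-05). Sdc3, a syndecan that carries such chains, fell 3.13-fold and Cmah, which converts sialic acid, 3.69-fold. The chondroitin gene Chpf2 rose 2.30-fold, with 38.2% of its sequence shared. Among 83 enzymes of histone and DNA methylation and deacetylation 22 fell and 11 rose (26.5% and 13.3%, against 21.4% and 19.1% over all genes). Hdac9, a class IIa deacetylase, fell 9.56-fold, from 49.2, 55.5 and 38.9 CPM to 5.48, 2.92 and 6.78 CPM, and Tet2 and Tet3, which oxidise methylcytosine, fell 1.68-fold and 1.77-fold. Klf9, a transcription factor known as a target of glucocorticoid and thyroid hormone receptors, rose 6.54-fold, from 1.94, 2.48 and 1.84 CPM to 12.3, 13.97 and 14.8 CPM. Of 16 Kruppel-like and related factors 1, Klf9, was called higher and 2 lower (6.25% and 12.5%, against 19.1% and 21.4% over all genes). DESeq2 called 2 higher and 4 lower, 3 were higher without the filter on low counts, and 1 was lower without the genotype term. With 1 library left out the counts were 2 higher without mutant oxLDL replicate 1 and without either wild-type library, 0 lower without mutant untreated replicate 2 and 1 lower without mutant oxLDL replicate 1.

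Ribosomal protein genes were called seldom, in contrast to the synthetases. Of 84 cytosolic ribosomal protein genes 2 were higher and 5 lower (2.38% and 5.95%, against 19.1% and 21.4% over all genes), with a median log2 fold change of -0.03. Of 79 mitochondrial ribosomal protein genes 5 were higher and 5 lower, with a median of 0.03. With 1 library left out the counts were 0 to 1 higher and 3 to 4 lower for the cytosolic list and 1 to 5 higher and 2 to 3 lower for the mitochondrial list, so that mutant untreated replicate 1 alone took the mitochondrial count from 5 higher to 1. The mitochondrial list had 3 lower and the cytosolic list 0 higher without the genotype term, and the cytosolic list had 1 higher with RLE size factors. Reads of ribosomal protein genes can be divided with their many pseudogenes, and 24.5% of Rpl30 and 17.1% of Rpl26 was shared. Of 88 ribosome biogenesis genes 17 rose (19.3%) and 7 fell (7.95%), with Gnl3 (nucleostemin) up 2.03-fold and Nmd3, an export adaptor of the large subunit, down 2.13-fold. That list was less stable, at 7 higher without mutant untreated replicate 1, 8 and 9 without the untreated and the treated wild-type library, 11 without either mutant oxLDL library, and 2 lower without mutant untreated replicate 2 or mutant oxLDL replicate 1 and 4 lower without mutant untreated replicate 1 or mutant oxLDL replicate 2, and 3 lower without the genotype term.

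Among the 12 largest increases outside the best-known programmes, with the same direction at 2-fold or more in both genotypes, were the synaptic scaffold gene Dlg2 (36.3-fold), Cdkn1c, Dmd and Dio2. Dlg2 had 9 counts over the untreated arm (0.353 and 0.283 CPM in the mutant and 0.051 CPM in wild type), so the size of its change is uncertain. With oxLDL it reached 13.3 and 11.6 CPM in the mutant and 1.34 CPM in wild type. Dio2, the deiodinase that activates thyroid hormone, measured 18, 10.4 and 1.89 CPM without oxLDL and 349, 122.8 and 85.3 CPM with it (mutant, mutant, wild type). Each treated library was above every untreated one, though the treated mutant libraries differed from each other by more than 2-fold, and Dio2 rose 21.6-fold (log2 4.43 ± 0.53, adjusted p = 0.00125). Dmd (dystrophin) had 7 counts over the untreated arm (0.618, 0 and 0 CPM, mutant, mutant, wild type). It reached 7.63 and 5.65 CPM in the treated mutant and 0.447 CPM in treated wild type, the latter below mutant untreated replicate 1. Its log2 change of 4.59 was 8.83 without mutant untreated replicate 1 and 3.61 without mutant untreated replicate 2, so the size is uncertain. Dmd did not pass without the genotype term (adjusted p = 0.0530). F5, coagulation factor V, rose 18.9-fold, from 33 counts over the untreated arm, and reached 20.9 and 24.9 CPM in the treated mutant and 4.79 CPM in treated wild type. Rab15, a GTPase of endocytic recycling, rose 20.3-fold (log2 4.34, or 4.93 without mutant untreated replicate 2). It had 15 counts over the untreated arm, so the size of its change is also uncertain. Kit, the stem cell factor receptor, rose 14.2-fold (log2 3.83, or 3.24 without mutant oxLDL replicate 1) and Itgb3, the beta 3 integrin, 16.6-fold (log2 4.05, or 3.46 without either wild-type library and 4.64 without mutant untreated replicate 1). C77080 measured 4.18 and 0.991 CPM in the treated mutant but 304 CPM in treated wild type, and its call was lost without either wild-type library (adjusted p = 0.0880 and 0.0822) and without the genotype term (adjusted p = 0.177). Atp6v0c-ps2 is annotated as a pseudogene and shares 80.8% of its sequence with Atp6v0c, so its change is uncertain.

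All 12 of the largest decreases had every treated library below every untreated one (23.3% of all genes), and 9 of the 12 largest increases had every treated library above (24.5%). These genes were chosen for large changes of equal sign in both genotypes, which favours such separation. Cd207 (langerin, a lectin of Langerhans cells) measured 15.5, 19.8 and 1.48 CPM without oxLDL and had 0 counts in all treated libraries, at least 217-fold lower against a floor of 3 counts over the arm. Gfi1b, a transcriptional repressor of blood lineages, measured 3.62, 7.29 and 6.14 CPM and had 0 counts with oxLDL, at least 118-fold lower. Spib, an ETS factor of lymphoid and dendritic cells, measured 4.77, 25.7 and 16.3 CPM without and at most 0.0991 CPM with oxLDL. Nhs measured 1.68, 16.2 and 17.2 CPM without and at most 0.128 CPM with it. Sema7a, a membrane semaphorin, measured 2.38, 8.21 and 10.8 CPM without and at most 0.0811 CPM with it. Nox1 (an NADPH oxidase) fell 134-fold, Rasgrp1 (a Ras exchange factor) 128-fold, the gene model Gm15987 128-fold and Raver2 (an RNA-binding protein) 108-fold. Gpr84, a receptor for medium-chain fatty acids, fell 110-fold (36.8% of its sequence shared), Cd300e 103-fold and the zinc finger gene Zfp811 85.8-fold. Over the treated arm Gm15987, Nox1 and Rasgrp1 had 9, 12 and 16 counts, and Gpr84 and Cd300e 24 each. Zfp811 and Raver2 had 47 and 50 counts, so the sizes of these changes are uncertain. Without mutant oxLDL replicate 2 the log2 changes of Rasgrp1, Gm15987, Raver2 and Zfp811 went from -7.00, -7.00, -6.75 and -6.42 to -7.78, -8.63, -7.96 and -7.16. Without either wild-type library those of Rasgrp1, Gm15987 and Raver2 were smaller, at -6.34, -6.40 and -6.16. Cd300e, an activating receptor of monocytes, measured 20.7, 30.3 and 93.3 CPM without oxLDL and 0.365, 0.248 and 0.639 CPM with it, so that the treated level was under 1 CPM in both genotypes.

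A few genes differed in direction between the genotypes. A test of the difference in the oxLDL change called 62 of 12689 genes (0.489%), of which 20 were pancreatic and 15 were also called across genotypes. Outside the best-known and pancreatic lists, 6 genes with at least 5 CPM in 2 or more libraries had at least 2-fold changes of opposite sign in mutant and wild type. In order of p for the difference these were Ptchd1, Sdc1, Col18a1, Nkain3, Cav1 and Slc36a2, and 0 of these 6 were called across genotypes by edgeR, by DESeq2 or at an unadjusted p under 0.05. Without either wild-type library, which leaves the change to the mutant libraries, all 6 were called lower, with log2 changes of -1.91 for Sdc1 and -2.06 for Col18a1 without the treated one. Sdc1, a syndecan that binds growth factors, measured 49.2 and 76.4 CPM in the untreated mutant and 16.2 and 17.2 CPM in the treated mutant, against 3.94 CPM untreated and 19.2 CPM treated in wild type. The treated levels were thus close in the genotypes, and the untreated levels differed by over 10-fold. The log2 change in the mutant less that in wild type was -4.19 ± 0.41 for Sdc1 (adjusted p = 0.0236), -3.30 for Col18a1 (a basement membrane collagen, adjusted p = 0.0282) and -2.23 for Ptchd1 (adjusted p = 0.0170). For Nkain3, Cav1 (caveolin-1) and Slc36a2 it did not pass, with adjusted p of 0.0533, 0.0912 and 0.248. Cdkn1c (p57), a cell cycle inhibitor, rose in both genotypes but by different amounts, from 4.50 and 3.82 CPM to 59.98 and 64.8 CPM in the mutant and from 1.89 to 208 CPM in wild type, a difference of -2.86 (adjusted p = 0.0140), with 22.1% of its sequence shared. These tests take the spread of the wild-type libraries, of which there is 1 per arm, from the mutant pairs.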

How the data were processed

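Polyadenylated RNA of 6 samples was sequenced as 150-base read pairs from a stranded kit, per the labels' protocols. The authors deposited expected counts for each gene, which RSEM 1.2.15 estimated from Bowtie2 2.1.0 alignments, per the submitters' processing notes. These name a human build, hg19, although the genes carry mouse names, so the build and annotation behind the counts are not given in the sources used here, and no coordinates were taken from the table. The strand setting of the counting is not given either.

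The deposited expected counts were rounded. Of 24054 genes, 17143 had a count and 12689 passed filterByExpr. Those were tested by quasi-likelihood in edgeR 4.0.16 (R 4.3.3, TMM factors, genotype plus treatment, 3 residual degrees of freedom), with Benjamini-Hochberg adjustment over all genes and calls at 0.05. SE is the size of the log2 change divided by the square root of F. The mutant was also tested alone, wild type was read as a log2 ratio with a prior count of 2, and the interaction was tested in a model of 4 group means. CPM values use the library size multiplied by the TMM factor. The script was tested on simulated data.

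The members and gene lists were chosen with earlier results of these data known. The best-known programmes were 13 lists with 790 genes tested. They covered interferon-stimulated genes and GTPases, NF-kB and cytokines, chemokines, complement and MHC class II, scavenger receptors, and mitosis and replication. The others were NRF2, glutathione and iron, ATF4 and endoplasmic reticulum stress, lysosome and autophagy, sterol synthesis, cholesterol efflux, and PPAR and lipid droplets. Named genes were the 12 largest changes in each direction, among called genes with at least 5 CPM in 2 or more libraries, 2-fold in the same sense in both genotypes, and outside the best-known and pancreatic lists. To these were added up to 4 called members of each described list with the smallest p. The 6 genes of opposite sign at 2-fold or more in both genotypes, all that met the same CPM and list filters, were also added. All members of the synthetase, clock and Ms4a lists are also given, and markers of macrophages, osteoclasts, neutrophils, dendritic and endothelial cells. Some genes and 1 list that these rules select are not reported here. Where an arm had 0 counts, the bound is against 3 counts over the arm and covers counting error only; with 1 to 3 counts levels are given. Of 236 genes looked up in mouse transcripts, 30 shared over 10% of their 75-base stretches with other genes, and for those named the share is given; their counts are uncertain. Alternatives were RLE factors, no filter, DESeq2 1.42.0, a replicate block, no genotype term, pancreatic genes left out and each library left out.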

Additional observations from a re-analysis of the deposited data

Results flagged for a closer look

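The oxLDL change differed between the genotypes, by the test of the difference itself, for 7 of the named genes, each rated against a single wild-type library per arm. The log2 change in the mutant less that in wild type was -2.86 for Cdkn1c, -2.23 for Ptchd1, -4.19 for Sdc1 and -3.30 for Col18a1. The other 3 are the pancreatic genes Amy2a5, Pnlip and Ctrb1 (adjusted p = 0.00433, 0.0140 and 0.0140 by edgeR), which had 0 counts in 3 libraries, so that the fitted size of their difference is no bound and is not given. Cdkn1c rose in both genotypes, and Ptchd1, Sdc1 and Col18a1 were lower with oxLDL in the mutant and higher in wild type. For Sdc1 the untreated wild-type library had the lowest level, 3.94 CPM, with the 5 others between 16.2 and 76.4 CPM. For Col18a1 the untreated mutant libraries were the highest, at 40.5 and 54.7 CPM, with the 4 others between 8.18 and 19.4 CPM. The untreated wild-type library also held the neutrophil and pancreatic transcripts, and their part in these differences was not tested.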

How the results depend on the processing

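The count of genes called across genotypes was 5134. It was 5114 with RLE factors, 5189 without the filter, 5188 with DESeq2, 5172 without pancreatic genes and 3814 without the genotype term, and 2178 of the called genes changed at least 2-fold. With 1 library left out it ranged from 3486 (without mutant untreated replicate 2) to 4545. Within the mutant, 4529 genes were called and 2512 to 4059 with 1 library left out, the lowest without mutant untreated replicate 2. The genotype difference was called for 62 genes, for 221 with DESeq2, and for 23 to 282 with 1 library left out (31 and 23 without mutant untreated replicates 1 and 2, 282 and 128 without mutant oxLDL replicates 1 and 2). Fewer libraries leave fewer degrees of freedom, and the cause of the wide range for the difference was not tested. The share of genes called in the mutant with the same sign in wild type stayed between 92.61% and 95.79%.

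With a replicate block, pairing the treated and untreated library of the same number, 4765 genes were called, and no call of a named gene was lost. The block gave 5 higher in place of 3 for nucleotide genes. The correlation of deviations between same-numbered mutant libraries was 0.204. The labels do not say whether these share an animal or culture, and wild type has no second number, so whether the numbers pair the libraries is not known. No called gene that is named changed direction under any alternative run. The pancreatic genes, which were not called, went from log2 3.84 (Amy2a5), 2.28 (Pnlip) and 2.13 (Ctrb1) to between -0.15 and -0.33 without either untreated mutant library. Calls of 8 named genes were lost without the genotype term, and of 1 to 3 when any single library was left out. Without either wild-type library 9 more were called, the pancreatic genes and those of opposite sign. The depth of 11281659 and 13597871 counts in the untreated mutant limits low genes there, with a floor of 3 counts at 0.265 and 0.212 CPM.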
